A study of Mus musculus with 48 samples.

Results

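Heme synthesis and the import of iron into mitochondria were followed through 9 genes in the blood and the medial prefrontal cortex (mPFC) of female mice. The genes were Alas1, Alas2, Alad, Uros, Urod, Cpox, Ppox, Fech and Slc25a37. All non-control probes that the array files name for these genes were taken, which gave 12 of the 55681 probes on the array, and 9 of its 34844 gene names. Of the 12 probes, 11 were detected in blood and the same number in mPFC, so that all 9 genes were measured in both tissues. The 12th, a further Uros probe (A_55_P2175356), did not pass and is described only by its intensity.

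Heme is built from glycine and succinyl-CoA in a chain of enzymes that begins and ends inside mitochondria and runs through the cytosol in between. The first step is made by 5-aminolevulinate synthase, which exists as a housekeeping form (Alas1) and an erythroid form (Alas2). The last step, made by ferrochelatase (Fech), inserts iron into protoporphyrin, and mitoferrin-1 (Slc25a37) carries that iron across the inner mitochondrial membrane. Developing red cells make most of the heme of the body for hemoglobin, and young red cells that still carry RNA (reticulocytes) circulate in blood.

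The mice were 17-week-old C57BL/6J females in 4 groups of 6. Control mice had a sham operation and no stress, and CUMS mice had a sham operation followed by chronic ultra-mild stress. OVX mice were ovariectomized and not stressed, and OVX+CUMS mice were ovariectomized and stressed. Each mouse gave a blood array and an mPFC array, 48 arrays in all. The blood RNA came from the pellet of centrifuged heparinized blood, which holds red cells, white cells and platelets together. A change in the number of one kind of cell and a change in RNA per cell cannot be told apart in such a sample.

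Values below are log2 intensities minus the log2 of the 75th percentile of the same array, so that 0 is the 75th percentile of all probes. That percentile was itself not alike between the groups in blood. It lay between 54.9 and 192 intensity units over the 24 blood arrays and between 572 and 689 over the 24 mPFC arrays. The group means of its log2 spanned 0.75 in blood, from CUMS mice at the bottom to OVX mice at the top, and 0.11 in mPFC. The same span for the added E1A spike-in probes was 0.20 in blood and 0.15 in mPFC. The scanner software marked 21 of the 24 blood arrays for evaluation and no mPFC array. Each tissue lay on 3 slides, the first with 6 control and 2 CUMS arrays, the second with 4 CUMS and 4 OVX arrays, and the third with 2 OVX and 6 OVX+CUMS arrays.

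Sequences are shown for the probes that carry the main comparisons and for the starts of the genes of both synthase forms. The Alas2 probe (mm9, chrX:147004993-147005052) runs over the end of the coding sequence, and its bases up to the stop codon, in capitals, are printed first. The Alad probe (mm9, chr4:62172559-62172618), the Ppox probe (mm9, chr1:173207452-173207629) and the Slc25a37 probe A_55_P2032445 (mm9, chr14:69902797-69902856) are printed whole, 5′ to 3′, with no part marked.
Alas2 probe, up to the stop codon: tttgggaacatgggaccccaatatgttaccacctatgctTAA
Alad probe: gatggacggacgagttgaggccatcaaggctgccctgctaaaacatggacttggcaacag
Ppox probe: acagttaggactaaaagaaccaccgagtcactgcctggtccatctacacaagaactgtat
Slc25a37 probe A_55_P2032445: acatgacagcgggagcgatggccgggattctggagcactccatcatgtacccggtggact

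The 250 bases before the RefSeq starts of Alas2 (GRCm38.p6, chrX:150547167-150547416, plus strand) and Alas1 (GRCm38.p6, chr9:106247955-106248204, minus strand) were searched on both strands. The letters searched were AGATAA and TGATAA, the core that GATA factors bind. A match is in capitals, and it is a description of the letters and not of a bound site.
Alas2, 250 bases before the start: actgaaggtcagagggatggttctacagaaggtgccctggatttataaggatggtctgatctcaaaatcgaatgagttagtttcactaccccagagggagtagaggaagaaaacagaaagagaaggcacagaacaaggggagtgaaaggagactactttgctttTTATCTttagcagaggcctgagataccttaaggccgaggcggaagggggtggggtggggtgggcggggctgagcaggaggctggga
Alas1, 250 bases before the start: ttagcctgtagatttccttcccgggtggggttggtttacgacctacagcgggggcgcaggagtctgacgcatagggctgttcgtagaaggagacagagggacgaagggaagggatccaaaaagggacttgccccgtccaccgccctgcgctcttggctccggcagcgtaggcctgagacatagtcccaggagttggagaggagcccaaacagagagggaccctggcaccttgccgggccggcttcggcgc

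The Alas2 window held 1 match, TTATCT, at positions -86 to -81 from the start, where the first form reads on the other strand, and the Alas1 window held none. Of the 32851 mouse windows of that length, 16.6% held either form. Windows were listed for 7 of the 9 genes (10 windows), and 3 of the 10 held a GATA match, for Alas2, Cpox and Uros. The CACCC box searched as CCACACCC was in none of the 10 and in 3.2% of all windows. The NRF1 pattern was in 2 of the 10, a second Alas1 window and a Uros window, and in 3.74% of all windows.

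On the arrays, the Alas2 probe measured 339343 to 451405 intensity units over the 24 blood arrays, without saturation on any array, and the Fech probe 173011 to 239466. The Slc25a37 probe A_51_P343429 measured 132788 to 218025. For the enzymes of the middle of the chain, the ranges were 442 to 641 for Alad (porphobilinogen synthase), 152 to 522 for Uros (uroporphyrinogen III synthase) and 188 to 1177 for Cpox (coproporphyrinogen oxidase). Probes differ in how well they bind, so that such intensities order the arrays for each probe and not the genes among themselves. The undetected Uros probe had a group median of 12.8 to 15.5 units in blood, and it was well above background on 4 control, 3 CUMS, 5 OVX and 4 OVX+CUMS arrays. In mPFC it was well above background on every array, but between 28.5 and 49.6 units, under the minimum of 50.

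Ovariectomy came with lower levels of Alas2, Alad, Fech and Slc25a37 in blood on the percentile scale. The OVX effect is the mean of both ovariectomized groups minus the mean of both sham-operated groups. It was lower for 5 of the 11 tested probes and higher for none, where 27.7% of all 20768 detected probes were lower and 55.1% were called in either direction. The median of the 11 was -0.42, against 0.04 over all detected probes. These directions hold for the percentile scale, and the values on other scales are given further on.

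Normalized Alas2 lay between 11.45 and 12.24 (median 11.69) in control mice and between 11.86 and 12.73 (12.19) in CUMS mice. It lay between 10.87 and 11.67 (11.39) in OVX mice and between 11.22 and 11.74 (11.44) in OVX+CUMS mice. CUMS mice stood highest, and each of their values exceeded every OVX and OVX+CUMS value, while control mice overlapped with both ovariectomized groups. The OVX effect on Alas2 was -0.57 (SE 0.11, adjusted p = 0.000394 by limma).

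Fech ran with Alas2. Its levels were 10.57 to 11.39 (median 10.81) in control, 11.01 to 11.94 (11.32) in CUMS, 9.86 to 10.89 (10.46) in OVX and 10.23 to 10.92 (10.55) in OVX+CUMS mice. Every CUMS value again exceeded every value of the ovariectomized groups, and control values overlapped with all of the others. The share of all detected probes that separate CUMS mice from the ovariectomized groups was not counted, so this separation is a description of Alas2 and Fech alone. Its OVX effect was -0.61 (SE 0.13, adjusted p = 0.000805).

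Mitoferrin-1 was read by a pair of probes. A_51_P343429 was at 10.06 to 11.18 (median 10.35) in control, 10.55 to 11.52 (10.78) in CUMS, 9.53 to 10.55 (10.01) in OVX and 10.15 to 10.73 (10.42) in OVX+CUMS mice. A_55_P2032445 was at 5.24 to 6.43 (5.66), 5.62 to 6.67 (6.27), 4.87 to 5.86 (5.35) and 5.18 to 5.81 (5.48) in the same order. All groups overlapped with control mice on both probes. Both fell with ovariectomy, by 0.42 (SE 0.13, adjusted p = 0.0109) and by 0.53 (SE 0.14, adjusted p = 0.00358) on the log2 scale.

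Alad, the second step, was at 1.91 to 2.62 (median 2.13) in control, 2.15 to 3.12 (2.72) in CUMS, 1.36 to 2.39 (2.05) in OVX and 1.79 to 2.41 (2.08) in OVX+CUMS mice. OVX mice held the lowest values and overlapped with control mice. Its OVX effect was -0.43 (SE 0.14, adjusted p = 0.0126).

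The other steps were not called for ovariectomy. Urod (uroporphyrinogen decarboxylase) changed by -0.22 (adjusted p = 0.24), Cpox by -0.31 (0.277), Uros by -0.03 (0.735) and Ppox (protoporphyrinogen oxidase) by 0.00 (0.973). The probes of Alas1 pointed apart, A_55_P1959985 with -0.52 (adjusted p = 0.0778) and A_55_P2083649 with 0.41 (0.0855). The blood of OVX+CUMS mouse 5 had a summed neutrophil marker level of 3651 times the array percentile, against a group median of 445. Its mean erythroid marker level was 0.58 above that of its group on the log2 scale, and its summed erythroid level was 14664, against a median of 14977. Without this mouse Urod and Cpox were also called lower, at -0.32 (adjusted p = 0.048) and -0.49 (0.0352), and 7 probes passed in place of 5. This was the top of the range over the 24 fits with a single mouse left out. The part of any cell type in this change was not tested.

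**Figure D1:**
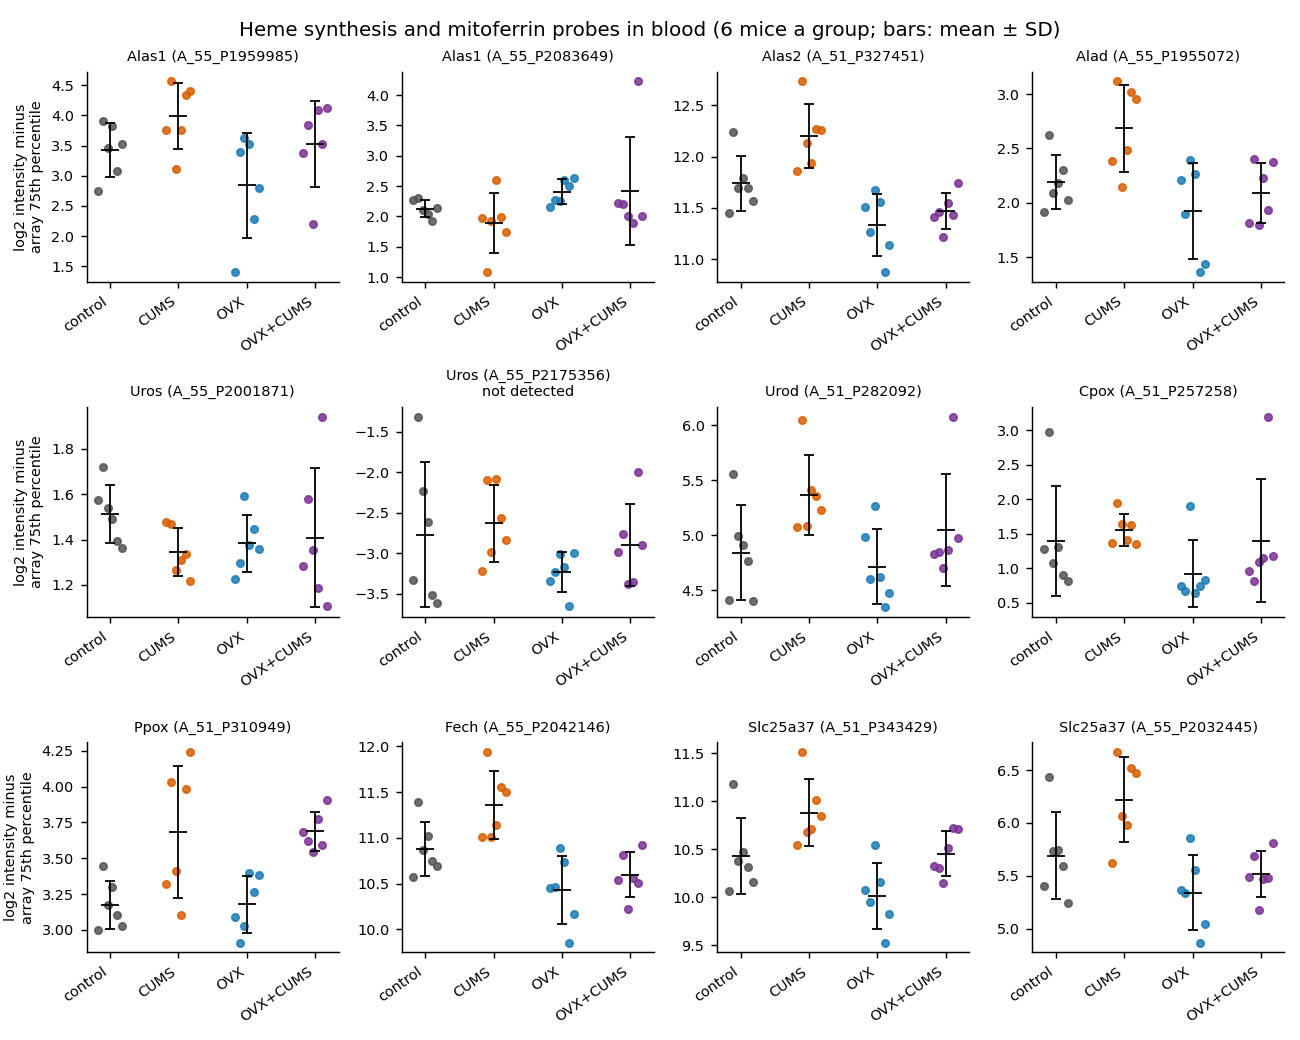
Normalized level (log2 intensity minus the array 75th percentile) of each of the 12 probes in blood, with 1 point per mouse, 6 mice a group, and bars for mean and SD. Alas2, Fech and both Slc25a37 probes are lowest in OVX mice and highest in CUMS mice, whereas Uros and Alas1 A_55_P2083649 do not share that order.

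On the percentile scale, chronic stress came with higher levels of 7 of the 11 probes in blood and lower levels of none. On the spike-in scale and with no shift, which are set out further on, 0 were higher and 1 was lower. There 46.1% and 44% of all detected probes were called. On the percentile scale, 19.1% of all detected probes were higher and 48.5% were called either way. The CUMS effect is the mean of both stressed groups minus the mean of both unstressed groups. The median over the 11 probes was 0.33, against -0.03 over all detected probes.

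Ppox, which makes protoporphyrin for the last step, had the smallest adjusted p. It was at 3.00 to 3.44 (median 3.14) in control, 3.10 to 4.24 (3.70) in CUMS, 2.91 to 3.40 (3.18) in OVX and 3.54 to 3.91 (3.65) in OVX+CUMS mice. Every OVX+CUMS mouse exceeded every control and every OVX mouse, and CUMS mice overlapped with control mice. The share of all detected probes that separate OVX+CUMS from OVX mice was not counted. Its CUMS effect was 0.51 (SE 0.11, adjusted p = 0.00201).

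Alas2 rose by 0.30 (SE 0.11, adjusted p = 0.0292) and Fech by 0.32 (SE 0.13, adjusted p = 0.0431) with stress. Both Slc25a37 probes rose, A_51_P343429 by 0.45 (SE 0.13, adjusted p = 0.00968) and A_55_P2032445 by 0.36 (SE 0.14, adjusted p = 0.0388). Urod, at 4.40 to 5.56 (median 4.84) in control, 5.07 to 6.05 (5.30) in CUMS, 4.35 to 5.27 (4.61) in OVX and 4.71 to 6.08 (4.86) in OVX+CUMS mice, rose by 0.43 (SE 0.16, adjusted p = 0.0319). Groups overlapped, with CUMS mouse 2 and OVX+CUMS mouse 5 at the top.

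Alas1 A_55_P1959985 was at 2.75 to 3.90 (median 3.50) in control, 3.12 to 4.56 (4.05) in CUMS, 1.40 to 3.63 (3.10) in OVX and 2.20 to 4.13 (3.69) in OVX+CUMS mice. It varied most widely within OVX mice and rose with stress by 0.63 (SE 0.25, adjusted p = 0.043). The other Alas1 probe was at -0.11 (adjusted p = 0.653). Alad was at 0.33 (adjusted p = 0.0507), Cpox at 0.32 (0.277) and Uros at -0.07 (0.472), none of them called. The number of probes called for stress moved between 2 and 8 when single mice were left out. It was 2 without control mouse 1, control mouse 6, CUMS mouse 2 or OVX mouse 5, and 3 without OVX mouse 6 or OVX+CUMS mouse 6.

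The stress effect was not called as different between ovariectomized and sham-operated mice for any of the 11 probes, where 1.42% of all detected probes were called for this interaction. None of the 11 had an unadjusted p under 0.05 either, and the fitted differences lay between -0.35 for Slc25a37 A_55_P2032445 and 0.31 for Cpox.

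Mice with both treatments were then set against control mice. None of the 11 probes was called in blood by limma after adjustment, where 6.26% of all detected probes were, and 1 of them, Ppox, had an unadjusted p under 0.05. Ppox was at 0.51 (SE 0.16, adjusted p = 0.0513), and 6 of 6 OVX+CUMS mice exceeded all control mice, with an exact two-sided permutation p of 0.00216, the smallest that 6 against 6 allows. Of all detected probes, 8.18% showed no overlap between these groups and 3.92% lay higher without overlap. Alas2 was at -0.27 (adjusted p = 0.33) and Fech at -0.29 (0.392). The Ppox difference was called by limma in 4 of 13 alternatives, over which it ranged from 0.29 to 0.72 with adjusted p up to 0.78. It passed with normexp background (0.67), quantile normalization (0.58), a percentile over detected probes alone (0.56) and no shift between arrays (0.72). All 6 control arrays lay on the first slide and all 6 OVX+CUMS arrays on the third. With the slide as a fixed block, none of the 20768 detected probes was called for this comparison, and with a random block 0.689% were.

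The size and the call of these blood effects, and for some probes the direction, depended on what the arrays were scaled to. The OVX effect was negative in all 13 alternatives for Alas2 (-0.57 to -0.03), Fech (-0.61 to -0.08) and Slc25a37 A_55_P2032445 (-0.53 to -0.03). It changed sign for Alad (-0.43 to 0.17) and Slc25a37 A_51_P343429 (-0.42 to 0.08). These ranges also take in settings other than the scaling, and the Alad value of 0.17 came with the slide as a fixed block. Of the probes called for stress, Alas2, Fech, Urod and Slc25a37 A_55_P2032445 changed sign, and Ppox, Slc25a37 A_51_P343429 and Alas1 A_55_P1959985 did not. Before scaling, the Alas2 intensity ranged 1.33-fold from lowest to highest array, with an SD of 0.09 on the log2 scale, whereas its normalized value had an SD of 0.42. Median Alas2 intensity was 371499 in control, 387586 in CUMS, 361958 in OVX and 353487 in OVX+CUMS mice, with all groups overlapping. With no shift between arrays, a setting chosen after the data were seen, the OVX effect was -0.09 for Alas2 (adjusted p = 0.32), -0.13 for Fech (0.17), 0.05 for Alad (0.66) and 0.05 and -0.05 for Slc25a37 (0.61 and 0.64). On that scale 3 probes were called higher and none lower, Alas1 A_55_P2083649 at 0.88, Uros at 0.44 and Ppox at 0.48, where 65.4% of all detected probes were called.

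A shift by the E1A spike-in probes kept Alas2 (-0.22, adjusted p = 0.034) and Fech (-0.26, adjusted p = 0.02) lower with ovariectomy. It called Alas1 A_55_P2083649 (0.76), Uros (0.32) and Ppox (0.35) higher, and it left Alad and Slc25a37 uncalled. With this shift 58.2% of all detected probes were called for ovariectomy. Over all detected probes, the share of OVX calls that were higher was 49.8% on the percentile scale, 87.4% on the spike-in scale and 94.7% with no shift. The median OVX effect over all detected probes was 0.04, 0.39 and 0.52 on these scales. For stress the median was -0.03, -0.33 and -0.30, and the share of higher calls 39.3%, 5.54% and 6.99%. No member was called higher with stress on either of the other scales, and Uros was called lower on both, at -0.37 and -0.34. Quantile normalization left Alas2 (-0.03, adjusted p = 0.66) and Slc25a37 A_51_P343429 (-0.02, adjusted p = 0.85) uncalled for ovariectomy, and Alas2 (0.05, adjusted p = 0.42) and Fech (0.08, adjusted p = 0.33) uncalled for stress. A shift moves all probes of an array together. The distance of an effect from the median of all detected probes is therefore the same on the percentile, spike-in and no-shift scales by construction. Alas2, Fech, Alad and Slc25a37 lay below that median with ovariectomy and above it with stress, and the agreement of these 3 scales is no further result.

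**Figure D2:**
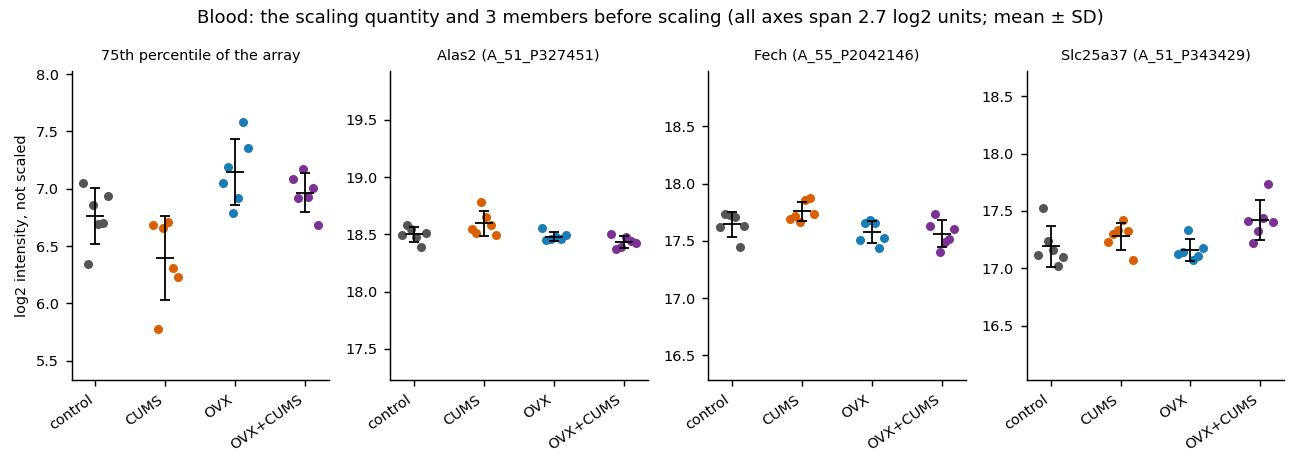
Blood intensity as deposited, without a shift between arrays, as log2, for the 75th percentile of each array and for Alas2, Fech and Slc25a37 A_51_P343429, with 1 point per mouse, 6 mice a group, bars for mean and SD and equal spans on all axes. Alas2 stays between 339343 and 451405 units on every array, while the 75th percentile runs from 54.9 to 192 units and is highest in OVX mice.

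**Figure D3:**
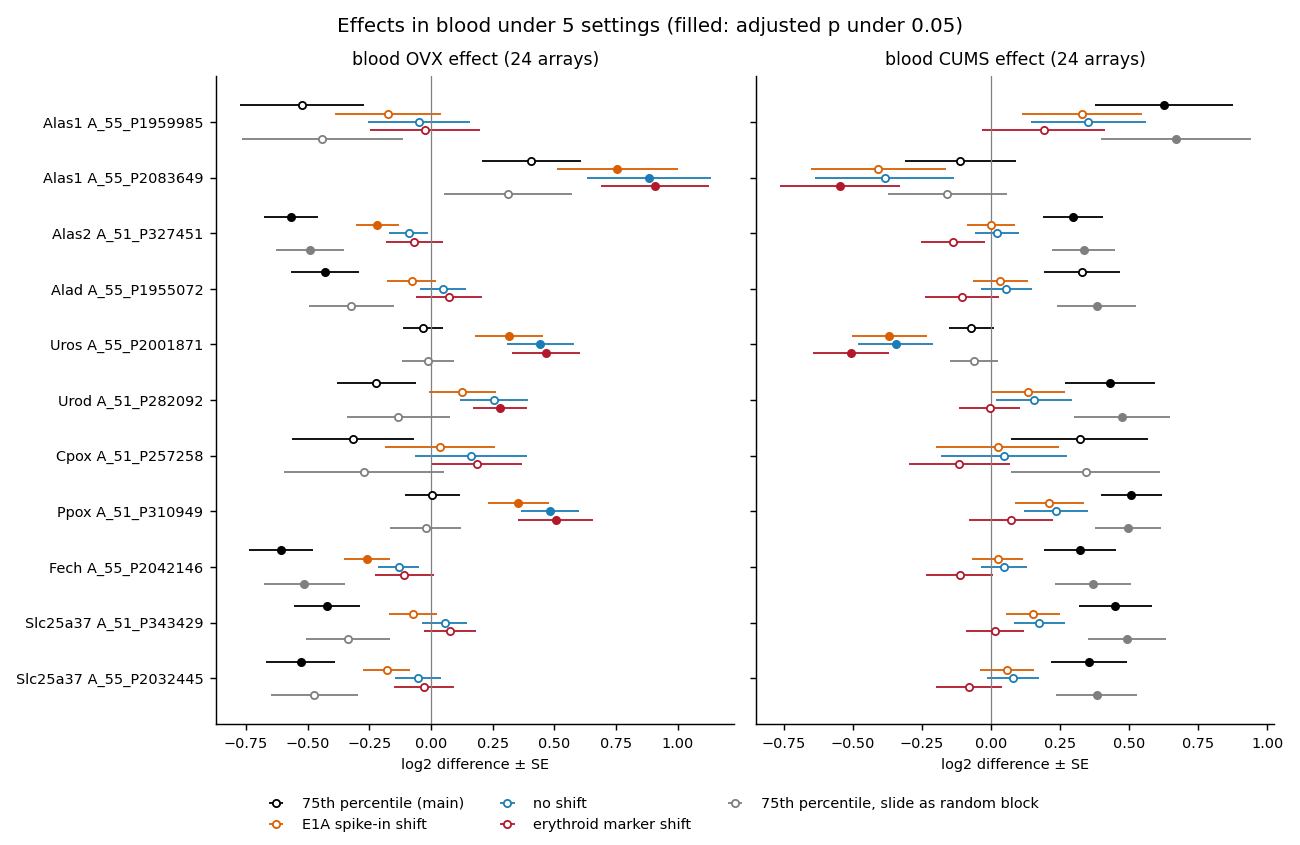
OVX and CUMS effects in blood (log2 difference with SE, 24 arrays) for each detected probe under the percentile scale, the spike-in shift, no shift, the erythroid marker shift and the slide as a random block. Filled points have an adjusted p under 0.05. The OVX effect on Alas2 moves from -0.57 on the percentile scale to -0.22 with the spike-in shift and -0.09 with no shift, and that on Ppox from 0.00 to 0.35 and 0.48.

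Erythroid markers moved with the members on the percentile scale. Of the 19 tested probes of the erythroid list, which holds hemoglobins, red-cell membrane proteins and erythroid factors and none of the members, 14 were lower and none higher with ovariectomy (median -0.54), and 11 were higher and none lower with stress (median 0.52). Of all detected probes, 27.7% were lower with ovariectomy and 19.1% were higher with stress. The summed erythroid level, as a multiple of the array percentile, was 15339 to 25006 in control, 18475 to 35420 in CUMS, 10256 to 16584 in OVX and 13163 to 17391 in OVX+CUMS mice. Klf1 and 1 of the Car1 probes of that list were not detected in blood. When the arrays were shifted by the mean of these 19 probes, a setting also chosen after the data were seen, Alas2 was at -0.07 (adjusted p = 0.63), Fech at -0.11 (0.45), Alad at 0.07 (0.66) and Slc25a37 at 0.08 and -0.03 (0.54 and 0.85) with ovariectomy. On the erythroid scale Alas1 A_55_P2083649 (0.91), Uros (0.47), Urod (0.28) and Ppox (0.50) were called higher with ovariectomy, where 62.4% of all detected probes were called, 97.4% of these calls were higher and the median was 0.54. With stress, Uros (-0.51) and Alas1 A_55_P2083649 (-0.55) were called lower, where 54.6% of all detected probes were called, 1.20% of these calls were higher and the median was -0.47. The erythroid share of the pellet and the level per red cell cannot be told apart in these arrays.

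Other blood cell lists were counted in the same way, on the percentile scale alone. Of all detected probes, 55.1% were called for ovariectomy, and 49.8% of these calls were higher. For stress 48.5% were called, and 39.3% of these calls were higher. Of the 11 neutrophil probes tested, none was called for ovariectomy and 2 were higher with stress, and 1 of 7 monocyte probes was higher with ovariectomy and 1 lower with stress. B-cell probes were 3 of 6 higher with ovariectomy and 4 of 6 lower with stress. Of the 5 T-cell probes, 1 was lower with ovariectomy and 2 with stress, and of the 4 NK-cell probes 1 and 2. Of the 6 platelet probes, 2 were lower with ovariectomy. The part of these cells in the members' values was not tested.

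The slides split the groups in the same way as the treatments in part. With the slide as a fixed block, none of the 20768 detected probes was called for ovariectomy, and 0 members had an unadjusted p under 0.05. The median SE of the member effects was then 0.28, against 0.14 without the block, and the OVX effects on Alad and Slc25a37 A_51_P343429 became 0.17 and 0.06. With the slide as a random block, 2 members were called, Alas2 (-0.49, adjusted p = 0.019) and Fech (-0.51, adjusted p = 0.03). Of all detected probes, 22.4% were called for ovariectomy with the random block. The stress calls were 7 with the fixed block and 8 with the random block, where 49.7% and 49.3% of all detected probes were called. Within the second slide, which held 4 OVX and 4 CUMS arrays, OVX minus CUMS was -0.65 for Alas2, -0.66 for Fech and -0.63 and -0.73 for Slc25a37. All 4 were called there, as were 52.2% of detected probes. Within the first slide, CUMS minus control was 0.56 for Alas2 and 0.59 for Fech, and within the third, OVX+CUMS minus OVX was 0.46 and 0.58. No probe of the array was called on those slides, each of which had 2 arrays on one side.

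On the percentile scale, Alas2, Fech, Slc25a37 and Alad varied together from mouse to mouse. Over the 24 blood arrays, Pearson's r was 0.97 between Alas2 and Fech, 0.92 and 0.95 between Alas2 and the Slc25a37 probes, and 0.90 between Alas2 and Alad. Spearman's rho was 0.96, 0.83, 0.91 and 0.85 in the same order, and each had a permutation p of 1e-05, the smallest that the permutations can give (2e-05 adjusted over the 10 relations of Alas2). Without the 2 arrays farthest from the median of Alas2, r was 0.96, 0.85, 0.94 and 0.85, and within the slides it lay between 0.80 and 0.99. With the group means taken out it was 0.94 between Alas2 and Fech. Values on a scaled array share their percentile, and on the intensities without a shift the r of Alas2 was 0.47 with Fech, 0.17 and 0.46 with Slc25a37 A_51_P343429 and A_55_P2032445, and -0.14 with Alad. Uros stood apart, with r of -0.03 to Alas2 (rho -0.04, permutation p = 0.9 and 0.8). The Alas1 probes had r of -0.23 to each other.

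The probes whose blood pattern on the percentile scale was most like each member included red-cell genes for Alas2, Slc25a37 and Urod. Scaled values share the array percentile, and the SD of Alas2 in blood was 0.09 before scaling and 0.42 after. The r without a shift was not computed for these probes, so the likeness holds for the percentile scale alone. For Alas2 they were the hemoglobin genes Hba-a2 (r = 0.99 over 24 arrays, 0.98 within groups) and Hbb-bs (0.98), and Marchf2 (0.98). For Fech they included Ftl1, the ferritin light chain (0.99), and Isca1, an iron-sulfur assembly factor (0.99). For Slc25a37 they were Ghitm, Tpm1 and the red-cell membrane protein gene Epb41, and for Urod Fzr1 and the membrane skeleton genes Ank1 and Epb42. For Alas1 A_55_P1959985 they were Nsd2 (0.98) and Gprc5d (0.97). For Alad they were Kif17 and Def8, for Cpox Cln8, Carhsp1 and Mtfr1, and for Ppox Gm10024 and Dlk2. For Uros the closest were Rhoa, Csnk1a1 and Abcb10, each at 0.81. Of the 3 closest probes of Alas1, Alad, Ppox and Fech, 1 each had no gene symbol and is not named. Of all detected probes, 2.26% had r over 0.9 with Alas2, 2.06% with Fech and none with Uros.

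Neighbouring steps were counted from lists of other genes, in blood on the percentile scale alone. The median OVX effect over all detected probes was 0.04 on that scale, 0.39 on the spike-in scale and 0.52 with no shift. Such a shift moves the values of these neighbours as well, so that falls of the sizes given here can shrink or change sign. Their values on the other scales are not given. For heme synthesis and its mitochondrial transport and cofactors, 23 probes of 19 genes were tested in blood, of which 3 were higher and 8 lower with ovariectomy (median -0.06), where 55.1% of all detected probes were called and 27.7% were lower. Glrx5, a glutaredoxin of iron-sulfur cluster assembly, was at -0.79, Isca1 at -0.64 and -0.60, the scaffold Iscu at -0.49 and -0.59 and the co-chaperone Hscb at -0.39. Slc25a39, a mitochondrial carrier, was at -0.50 and Fam210b at -0.44. Among the higher ones were Clpx (0.40), a subunit of a mitochondrial protease, and the ferredoxin Fdx1 (0.25). With stress 7 of the 23 were higher and 6 lower, where 48.5% of all detected probes were called and 19.1% were higher.

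Among iron uptake, storage and sensing genes, 3 of 16 probes were higher and 5 lower with ovariectomy (median -0.09), and 7 were higher and 2 lower with stress (median 0.22). Of all detected probes, 55.1% were called for ovariectomy, 27.7% lower, and 48.5% for stress, 19.1% higher. The ferritin heavy chain Fth1 was at -0.68, Ftl1 at -0.52 and -0.44 and Ncoa4, the receptor for ferritin breakdown, at -0.54 with ovariectomy. Steap3, which reduces iron taken up with transferrin, was called higher in 3 comparisons, at 0.40 with ovariectomy, 1.02 with stress and 1.43 in OVX+CUMS against control mice. Aco1, the iron regulatory protein, was at 0.86 in that last comparison. The transferrin receptor Tfrc was not called in any blood comparison on either of its tested probes.

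For heme breakdown, export and sensing, 6 of 10 probes were higher and 3 lower with ovariectomy (median 0.25), and 3 were higher and 2 lower with stress. The shares of all detected probes called were 55.1% for ovariectomy and 48.5% for stress. The heme oxygenase gene Hmox1 had probes that disagreed, at 0.66 (adjusted p = 0.021) and -0.66 (adjusted p = 0.00036). Its constitutive relative Hmox2 was higher on both probes, at 0.25 and 0.31, and the biliverdin reductase Blvrb was lower, at -0.48. No interaction was called in any of these 3 lists in blood.

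Brain tissue held the same genes at other levels. All 11 probes differed between blood and mPFC on the percentile scale, 8 higher and 3 lower in blood. Of the 17545 probes detected in both tissues 96.5% were called, 54.7% higher and 41.8% lower. Alas2 showed the widest gap, 13.24 (SE 0.11) higher in blood on the percentile scale. Slc25a37 followed at 8.81 and 7.14, Fech at 7.52, Ppox at 3.32, Alas1 A_55_P1959985 at 2.48, Urod at 1.34 and Alad at 1.17. Alas1 A_55_P2083649 was lower in blood, at -2.23, as were Uros at -1.32 and Cpox at -0.96. The Alad and Urod differences turned to -0.75 and -0.58 with the spike-in shift and to -1.29 and -1.12 with no shift. That of Alas1 A_55_P1959985 was 0.56 with the spike-in shift and 0.02 with no shift, where limma did not call it (adjusted p = 0.87). The Alas1 probes lie within the same gene and transcript (mm9, chr9:106135796-106135855 and chr9:106136284-106136343). They put the tissues in opposite order on the percentile scale, so that no order is given for Alas1.

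**Figure D4:**
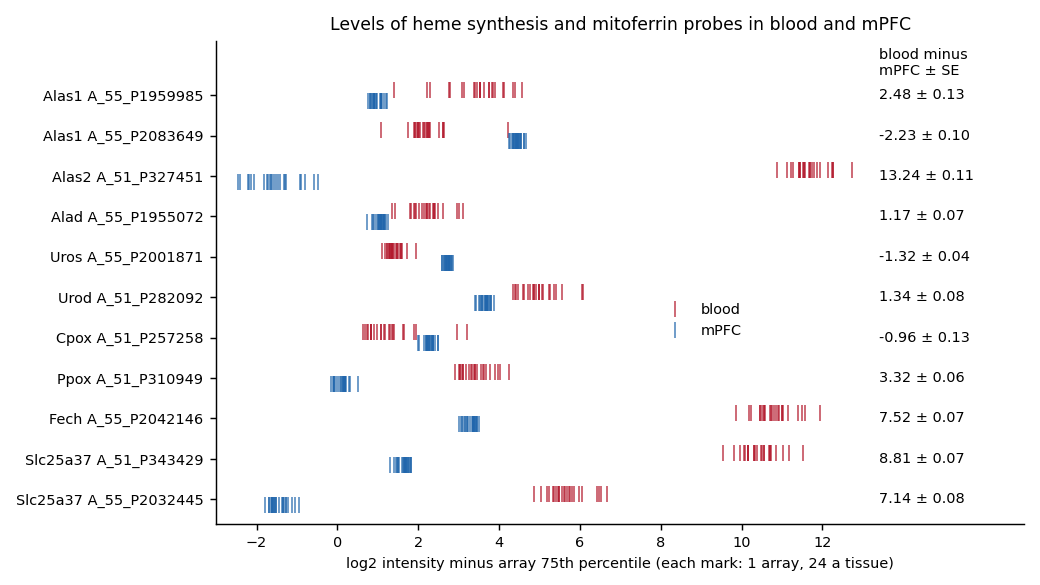
Normalized level (log2 intensity minus the array 75th percentile) of the 11 detected probes in blood and mPFC, with 1 mark per array and 24 arrays a tissue, and the difference with its SE at the right. Alas2 lies near 11 to 13 in blood and below 0 in mPFC, and the Alas1 probes lie on opposite sides.

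In mPFC, ovariectomy came with small shifts of 5 of the 11 probes, 4 higher and 1 lower, where 30.9% of the 28360 detected probes were called, 19.1% higher and 11.7% lower. Ppox was at -0.15 to 0.01 (median -0.08) in control, -0.09 to 0.18 (0.13) in CUMS, 0.09 to 0.30 (0.16) in OVX and 0.17 to 0.51 (0.19) in OVX+CUMS mice. Both ovariectomized groups lay wholly above control mice, and CUMS mice overlapped with all groups. The share of all detected probes that separate OVX from control mice was not counted. Its OVX effect was 0.21 (SE 0.04, adjusted p = 0.000586). Urod was higher by 0.15 (adjusted p = 0.00218), Fech by 0.13 (0.0335) and Alad by 0.11 (0.0336). Alas1 A_55_P1959985 fell by 0.12 (adjusted p = 0.0253).

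Stress moved 1 probe in mPFC, Slc25a37 A_51_P343429, by 0.18 (adjusted p = 0.0284), where 4.19% of detected probes were called and 2.33% were higher. The other Slc25a37 probe was at 0.19 (adjusted p = 0.135). No interaction was called, where 4.49% of detected probes were, and 2 members had an unadjusted p under 0.05 for it.

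OVX+CUMS mice differed from control mice in 7 of the 11 mPFC probes, 6 higher and 1 lower, against 33.4% of all detected probes (20.4% higher and 13% lower). Ppox was higher by 0.34, Fech by 0.23, Urod by 0.22, Alad by 0.22 and Slc25a37 by 0.19 and 0.30. Alas1 A_55_P1959985 was at 1.05 to 1.19 (median 1.08) in control, 0.81 to 1.22 (0.91) in CUMS, 0.83 to 1.08 (0.96) in OVX and 0.75 to 0.89 (0.87) in OVX+CUMS mice. The lowest control value exceeded the highest OVX+CUMS value, and the difference was -0.25 (adjusted p = 0.00153). This probe, Urod, Ppox and Fech showed no overlap between these groups, each with an exact permutation p of 0.00216, as did 17.2% of all detected probes (8.59% higher and 8.56% lower). No member was called for ovariectomy, stress or this comparison with the slide as a fixed or random block. With the fixed block none of the 28360 detected probes was called for any of them. With the random block 3.95%, 0.0917% and 4.92% were called, in the same order. With the spike-in shift no member was called higher for ovariectomy or in this comparison and 2 and 3 were called lower, where 21.5% and 37.6% of all detected probes were called and 2.25% and 1.06% of these calls were higher.

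**Figure D5:**
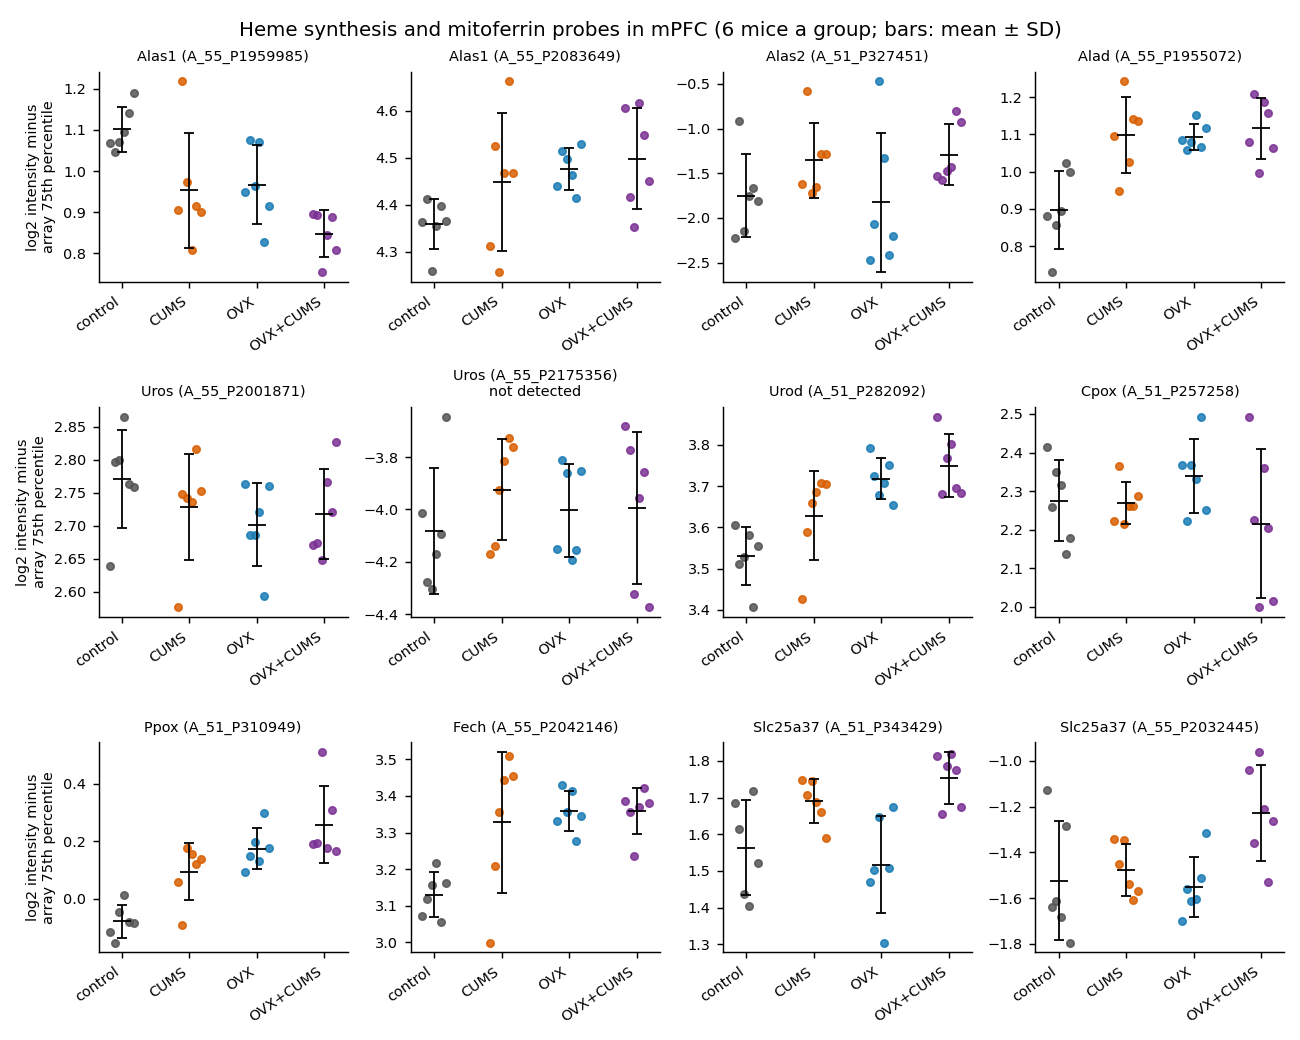
Normalized level (log2 intensity minus the array 75th percentile) of each of the 12 probes in mPFC, with 1 point per mouse, 6 mice a group, and bars for mean and SD. Ppox, Urod and Fech lie higher in OVX+CUMS mice than in any control mouse and Alas1 A_55_P1959985 lower, with differences of 0.22 to 0.34 in size.

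Alas2 in mPFC lay at 109 to 456 intensity units and was not called in any comparison. Its values were -2.22 to -0.91 (median -1.78) in control, -1.72 to -0.58 (-1.45) in CUMS, -2.47 to -0.47 (-2.14) in OVX and -1.58 to -0.80 (-1.46) in OVX+CUMS mice. The groups overlapped widely, and the OVX mice held both the lowest and the highest value. Of the 21 erythroid probes, 9 were detected in mPFC, namely Hba-a1, Hba-a2, Hbb-bt, Hbb-b2, Tspo2, Slc4a1, Sptb, Car1 and Ank1. The red-cell markers Rhag, Gata1, Epb42 and Nfe2 were well above background on 0 of 24 mPFC arrays.

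The same lists of neighbouring genes were counted in mPFC. With ovariectomy 11 of 24 pathway probes were higher and none lower, 4 of 19 iron probes were higher and none lower, and 5 of 12 heme-use probes were higher and 1 lower, where 30.9% of all detected probes were called and 19.1% were higher. Slc25a28, the mitoferrin of non-erythroid cells, was at 0.20, Ftl1 at 0.17 and 0.22, Aco1 at 0.24 and Hmox2 at 0.19 and 0.13. Hmox1 was lower on A_55_P2029687, at -0.48. In OVX+CUMS against control mice, 9 pathway, 4 iron and 4 heme-use probes were higher and none, 1 and 3 lower. Of all detected probes, 20.4% were higher and 13% lower. The interaction was called lower for 1 pathway probe and 1 heme-use probe, where 4.49% of all detected probes were called. The heme-use probe was of the heme-regulated kinase Eif2ak1, at -0.35. With the slide as a fixed block, none of the 28360 detected probes was called for ovariectomy, the interaction or OVX+CUMS against control.

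Markers of brain cells in mPFC were called as follows with ovariectomy, where 30.9% of all detected probes were called and 19.1% were higher. Of 5 microglia probes, 4 were higher, of 8 neuron probes 2, of 9 astrocyte probes 1 and of 6 oligodendrocyte probes none, with none of these lower. Of 8 monocyte probes 5 were higher and 1 lower. Their part in the members' values was not tested.

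The OVX effect differed between the tissues for 5 of the 11 probes, all lower in blood, where 39.3% of the probes detected in both tissues were called and 19.4% were lower. The blood effect minus the mPFC effect was -0.56 for Alas2 (adjusted p = 0.0413), -0.53 for Alad (0.003), -0.74 for Fech (6.38e-05) and -0.43 and -0.64 for Slc25a37 (0.0121 and 0.00157). The CUMS effect differed for 2 probes, Alas1 A_55_P1959985 at 0.76 (adjusted p = 0.0134) and Ppox at 0.38 (0.00716), both higher in blood, against 51.4% of all such probes called and 17.6% higher. With no shift between arrays the tissue difference of the OVX effect was 0.01 for Alad and 0.11 for Slc25a37 A_51_P343429, and neither was called. It was -0.02 for Alas2 (adjusted p = 0.93) and -0.10 for Slc25a37 A_55_P2032445 (0.44), which were not called either, and -0.20 for Fech (0.046). Higher in blood on that scale were Ppox at 0.34 (adjusted p = 0.011), Uros at 0.55 (0.000977) and Alas1 A_55_P2083649 at 0.86 (0.00379), where 71.5% of all probes were called and 98.1% of these calls were higher. The Alas2 difference was called in 1 of 8 alternatives, and without the mouse block its adjusted p was 0.0535.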

How the data were processed

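Total RNA of blood pellets and dissected mPFC was labelled with Cy3 and hybridised to 1-colour Agilent arrays by the authors, and the slides were read with Feature Extraction 10.7.3.1 (annotation mm9). The deposited intensity values (gProcessedSignal) were background-subtracted by that software and not normalized between arrays. The deposited series table holds log2 values of the same arrays less each array's 75th percentile, and was used as an alternative. It matched the values computed here within 0.001 for 100% of probe values.

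Spots of a probe were averaged, and log2 of the intensity minus log2 of the array's 75th percentile was tested. A probe was detected if it was well above background and unmarked on all 24 arrays of a tissue and over 50 units on at least 2. Effects were fitted with limma 3.58.1 in R 4.3.3 as a 2-factor model with 6 arrays a group, two-sided, with Benjamini-Hochberg adjustment over all detected probes of the tissue and a threshold of 0.05. Both tissues of 1 animal were kept together in the tissue comparisons by a random effect of mouse, whose correlation was 0.059. Single comparisons of 6 with 6 mice also had an exact permutation test. The fit was tested on simulated data. The number of arrays limits the precision. Replicates are separate mice.

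The members and all lists were chosen with earlier results of these data known. Named are all member probes, listed neighbours past the threshold or next to a member in the pathway, and, of the 3 probes most correlated in blood with the brightest probe of each member, those with a gene symbol. Scalings with no shift between arrays and with the erythroid markers were chosen after the data were seen. Sequences are from the array design and from RefSeq (GRCm38.p6). A few listed neighbours are counted in their lists and not reported here by name.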

Additional observations from a re-analysis of the deposited data

Results flagged for a closer look

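In 10 of 96 sets of 6 values (10.4%), the highest or lowest mouse stood far from the other 5 on a normalized member level. The sets are the 12 probes in 2 tissues and 4 groups. Chance gives about 5% for a single set. The sets share mice and correlated probes, so they are not independent, and no conclusion is drawn from that share. In blood, OVX+CUMS mouse 5 stood out on Alas1 A_55_P2083649 at 4.22 (next 2.22), on Urod at 6.08 (next 4.98) and on Cpox at 3.19 (next 1.18). Its summed neutrophil marker level was 3651 and its monocyte level 247, against group medians of 445 and 72.4. The mean erythroid marker level of this mouse was 0.58 relative to its group on the log2 scale. Control mouse 2 stood out on Cpox at 2.96 (next 1.30) and on Slc25a37 A_51_P343429 at 11.18 (next 10.47), with mean marker levels of 0.62 (erythroid) and -1.09 (platelet) relative to its group on the log2 scale. OVX mouse 3 stood out on Cpox at 1.90 (next 0.83) and CUMS mouse 2 on Urod at 6.05 (next 5.41).

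In mPFC, control mouse 3 was low on Alas1 A_55_P2083649 at 4.26 (next 4.36), CUMS mouse 1 on Uros at 2.58 (next 2.74) and OVX+CUMS mouse 3 on Fech at 3.24 (next 3.36).

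The effects of 7 probes differed between the tissues by a test of the difference with limma, with the mouse as a block. For ovariectomy the blood effect minus the mPFC effect was -0.56 for Alas2, -0.53 for Alad, -0.74 for Fech and -0.43 and -0.64 for Slc25a37. For stress it was 0.76 for Alas1 A_55_P1959985 and 0.38 for Ppox. The Alas2 difference was not called in 7 of 8 alternatives, among them the fit without the mouse block (adjusted p = 0.0535), and it was called in 14 of 24 fits with a single mouse left out (adjusted p = 0.0216 to 0.0715). The Ppox difference was 0.21 with the spike-in shift and 0.15 with no shift, and was not called there (adjusted p = 0.21 and 0.31).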

How the results depend on the processing

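Of the alternatives to the 11 counts of called member probes, 89 lay within 1.5 times the main count and 35 did not. A like count does not mean the same probes or direction. The blood OVX effect (5 lower, none higher) had 3 higher and 2 lower with the spike-in shift and 4 higher and none lower with the erythroid shift, and the tissue difference of OVX (5 lower, none higher) had 3 higher and 1 lower with no shift. The counts of the blood OVX effect (5 probes), blood CUMS effect (7), mPFC OVX effect (5), mPFC CUMS effect (1), mPFC OVX+CUMS against control (7) and tissue differences of OVX (5) and CUMS (2) moved as follows, the cause not being tested. Normexp background gave 1 for blood OVX+CUMS against control (main 0) and 3 for mPFC CUMS. Quantile normalization gave 3 for blood OVX, 1 for blood OVX+CUMS against control, 2 for mPFC CUMS and 3 for the tissue difference of OVX. A percentile over detected probes gave 1 for blood OVX+CUMS against control, 3 for mPFC OVX and 2 for mPFC CUMS. The spike-in shift gave 1 for blood CUMS, 2 for mPFC OVX, 2 for mPFC CUMS, 3 for mPFC OVX+CUMS against control, and 3 and 1 for the tissue differences of OVX and CUMS. No detection filter gave 2 for blood CUMS, 2 for mPFC OVX and 0 for mPFC CUMS, with 55681 probes tested, and probes detected on all 48 arrays gave 2 for mPFC CUMS. The slide as a fixed block gave 0 for blood OVX and for mPFC OVX, CUMS and OVX+CUMS against control, and as a random block 2, 0, 0 and 0. No shift gave 3 for blood OVX, 1 for blood CUMS, 1 for blood OVX+CUMS against control, 2 for mPFC OVX, 3 for mPFC OVX+CUMS against control and 1 for the tissue difference of CUMS. The erythroid shift gave 2 for blood CUMS.

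Changes of sign are given where the value was called in the main analysis or under the alternative, and those between uncalled values are not listed. With the erythroid shift the blood CUMS effect was -0.14 for Alas2, -0.11 for Fech, -0.080 for Slc25a37 A_55_P2032445 and -0.0045 for Urod, and the blood OVX effect 0.071 for Alad, 0.078 for Slc25a37 A_51_P343429, 0.28 for Urod and 0.47 for Uros. With no shift the blood OVX effect was 0.049 for Alad, 0.055 for Slc25a37 A_51_P343429 and 0.44 for Uros, the tissue difference of OVX 0.0052, 0.34 and 0.11 for Alad, Ppox and Slc25a37 A_51_P343429, and the blood minus mPFC level -1.29 for Alad and -1.12 for Urod. With the slide as a fixed block, the blood OVX effect was 0.17 for Alad and 0.063 for Slc25a37 A_51_P343429, the mPFC OVX effect 0.084 for Alas1 A_55_P1959985 and -0.047 for Fech, and mPFC OVX+CUMS against control 0.051 and -0.037 for these. With the spike-in shift, the blood OVX effect was 0.32 for Uros, the tissue difference of OVX 0.053 for Slc25a37 A_51_P343429, and the level -0.75 for Alad and -0.58 for Urod. On that scale the mPFC OVX effect was -0.028 for Alad and -0.0048 for Fech, and mPFC OVX+CUMS against control -0.040 for Alad, -0.030 for Fech, -0.069 for Slc25a37 A_51_P343429 and -0.041 for Urod.

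With single mice left out, the counts lay between 5 and 7 (blood OVX), 2 and 8 (blood CUMS), 0 and 0 (blood interaction), 0 and 1 (blood OVX+CUMS against control), 3 and 6 (mPFC OVX), 0 and 4 (mPFC CUMS), 0 and 1 (mPFC interaction), 5 and 8 (mPFC OVX+CUMS against control), 11 and 11 (level), 4 and 6 (tissue difference of OVX) and 2 and 5 (tissue difference of CUMS). The mPFC OVX count was 3 without CUMS mouse 2, OVX mouse 4 or OVX+CUMS mouse 5. The mPFC CUMS count was 0 without CUMS mouse 3, 4 or 5 or OVX mouse 1 and 4 without CUMS mouse 1 or 2, and the tissue difference of CUMS was 5 without control mouse 2.

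Mouse numbers did not pair the arrays of different groups, with r of -0.51 to 0.49 in blood and -0.23 to 0.39 in mPFC between deviations of the same number. A replicate block gave 6 and 7 for blood OVX and CUMS, 5 for mPFC OVX and 2 for mPFC CUMS. Without the block by mouse, the tissue differences were 11, 4 and 2. Intensities have no counting depth, and the number of arrays and the distance to background limit Uros A_55_P2175356.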

Other observations

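In mPFC, the level of Alas2 was set against each of the 9 erythroid probes detected there, a comparison chosen after the data were seen, over 24 arrays. Pearson's r was 0.98 with Hba-a2 (Spearman's rho 0.96, permutation p = 1e-05 for both, the smallest that the permutations can give, and 2e-05 after adjustment over the 9 relations). It was 0.97 with Hba-a1, 0.94 with Hbb-bt and 0.92 with Hbb-b2, each with the same p. Without the 2 arrays farthest from the median, r with Hba-a2 was 0.97, and within the 3 slides it was 0.98, 0.99 and 0.99. With Sptb r was 0.41 (rho 0.45, permutation p = 0.05 and 0.03, adjusted 0.08 and 0.05), with Slc4a1 0.27, with Ank1 0.02, with Car1 -0.08 and with Tspo2 -0.24 (rho -0.27, permutation p = 0.3 and 0.2). The hemoglobin and Alas2 values of an array share its percentile, whose group means spanned 0.11 on the log2 scale in mPFC. The SD of Alas2 in mPFC was 0.545 before scaling and 0.548 after. Where these transcripts come from in mPFC was not tested.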
